A study of Komagataella phaffii GS115 with 12 samples.

Results

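YBR162W-A is 1 row of a table of 2390 rows, measured on 12 one-colour arrays of the methylotrophic yeast Komagataella phaffii GS115, also known as Pichia pastoris. The row was chosen by its name and because its group means were lower in each of the 3 engineered groups than in the empty-vector group, so its differences from that group are described here without a test. Rows carry systematic names of Saccharomyces cerevisiae genes. All 2390 names occurred among the genes of that species, and 0 of 2390 occurred among the 5040 genes of the K. phaffii RefSeq table. Symbols and roles given below are therefore those of the S. cerevisiae gene with the same systematic name. They are background, and the transcript of K. phaffii that a row's probes measured is not known here.

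In S. cerevisiae, YBR162W-A is YSY6, a very small membrane protein of the endoplasmic reticulum (ER). It is related to mammalian RAMP4 (SERP1), a protein that associates with the Sec61 translocon. The translocon is the channel through which new secretory and membrane proteins enter the ER. They are brought there by the signal recognition particle, trimmed by signal peptidase, glycosylated and folded inside, and carried onward in COPII vesicles. The S. cerevisiae reading frame lies on chromosome II at 565226 to 565423 of the sacCer2 build, on the plus strand. It is a single exon of 198 bases, or 66 codons with the stop. It does not overlap its annotated neighbours, YBR162C on the minus strand (563198 to 564565) and YBR163W on the plus strand (565718 to 567475).

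The 12 samples formed 4 groups of 3 separate cultures, all grown in BSM medium and induced with methanol. The control, GS115/3.5K, had integrated the vector pPIC3.5K without an insert and was sampled after 72 h on methanol. GS115/DS56, called DS56 here, carried the recombinant methionine adenosyltransferase gene DS56 for making S-adenosyl-L-methionine, and was also sampled at 72 h. G12-CBS also harboured DS56, and in addition the weak promoter G12 to turn down CYS4, which encodes cystathionine beta-synthase. It was sampled at 72 h and, in the fourth group, at 24 h. L-methionine was given 24 h into induction to the 3 groups sampled at 72 h, and the 24 h cultures received none. By their phenotype labels, DS56 and the later G12-CBS group made much S-adenosyl-L-methionine, while the empty-vector strain and the earlier G12-CBS group made little. The sample titles instead tag the strain, with HP for both engineered strains, the 24 h cultures included, and LP for the control. The number of clones behind each strain was not known here, so a difference between strains and one between transformants cannot be told apart.

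Values are on the log2 scale, from 5.62 to 15.76, and levels are compared only within a row. They are relative to the total RNA of a culture, so fewer cells with a transcript and less of it per cell cannot be told apart. Without detection flags, no row was shown to lie above background. Array medians ran from 6.59 to 6.66. YDR502C, in S. cerevisiae the methionine adenosyltransferase gene SAM2, served to check the labels of the recombinant gene. It stood at 10.47 ± 0.29 (SD, n = 3) in the control, at 15.70 ± 0.10 in G12-CBS at 24 h, and at 15.76 ± 0, the top of the scale on every array, in DS56 and G12-CBS at 72 h. YLR180W, the S. cerevisiae gene SAM1, also for a methionine adenosyltransferase, stood at 7.06 ± 0.41 in the control and 8.75 ± 0.18 in DS56. In G12-CBS it stood at 8.72 ± 0.02 at 24 h and 8.04 ± 0.06 at 72 h. No row named for the S. cerevisiae CYS4 gene was analysed here.

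On the 3 control arrays YBR162W-A stood at 10.03, 9.80 and 10.00. In DS56 it stood at 8.50, 8.22 and 8.60. The 3 control values lay close together and above every DS56 value, with 1.197 between the lowest control array and the highest DS56 array. In G12-CBS at 72 h the values were 8.10, 7.93 and 8.25. In G12-CBS at 24 h they were 8.21, 8.10 and 8.10. All 9 engineered arrays thus lay below all 3 control arrays, and the 9 arrays spanned 7.93 to 8.60 among themselves.

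**Figure D1:**
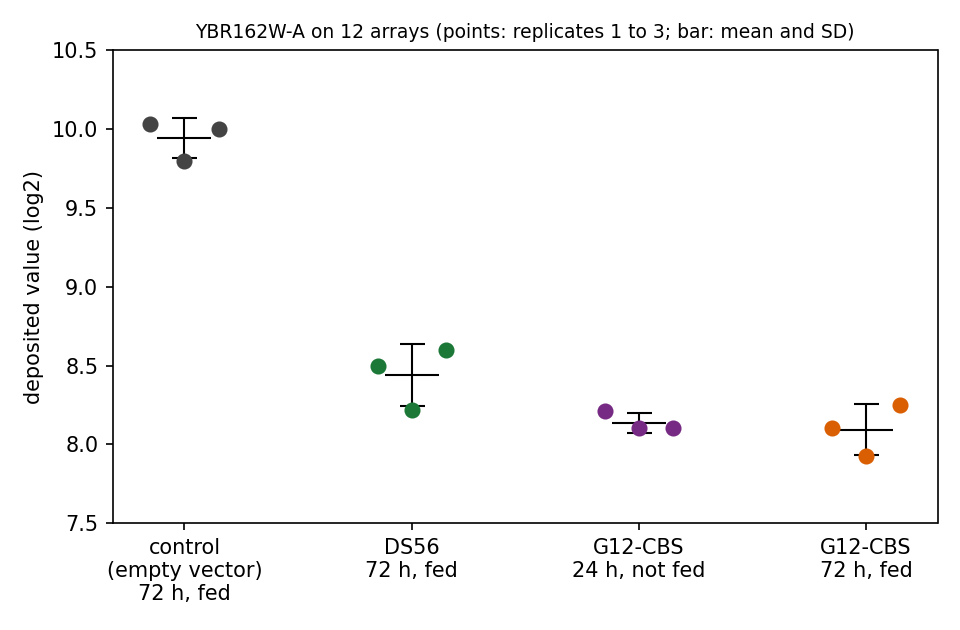
Deposited log2 values of YBR162W-A on the 12 arrays, by group. Points are the 3 replicates of a group and bars show the mean and SD. The control arrays lie between 9.80 and 10.03, and the 9 engineered arrays between 7.93 and 8.60.

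Group means were 9.94 ± 0.13 (SD, n = 3) in the control, 8.44 ± 0.20 in DS56, 8.14 ± 0.06 in G12-CBS at 24 h and 8.09 ± 0.16 in G12-CBS at 72 h. Relative to the control, the row was lower by 2.83-fold in DS56, a log2 difference of -1.50. For G12-CBS the log2 difference was -1.80 at 24 h, or 3.49-fold, and -1.85 at 72 h, or 3.60-fold. These 3 differences share the same control arrays. Both the fed and the unfed engineered cultures were low, as were engineered groups whose phenotype labels, unlike their shared HP title tag, read high and low production. A 24 h control was not analysed here, so the 24 h group is set against a control that was older and had been fed.

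The size of these differences can be set against the other rows, as a description only, since they chose the row. The mean was lower in all 3 engineered groups in 594 of 2390 rows (24.9%). All 9 engineered arrays lay below all 3 control arrays in 74 rows (3.1%), and above them in 47 rows (1.97%). When rows were ordered by the least of their 3 falls below the control, YBR162W-A came first of 2390, with -1.50. YCL028W followed with -1.32, then YHR007C-A with -0.94 and YDR115W with -0.89. YBR162W-A and YCL028W were the 2 rows at least 2-fold lower in all 3 groups. In single comparisons other rows were lower still: by mean difference YBR162W-A was rank 5 in DS56, rank 4 in G12-CBS at 24 h and rank 2 in G12-CBS at 72 h.

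**Figure D2:**
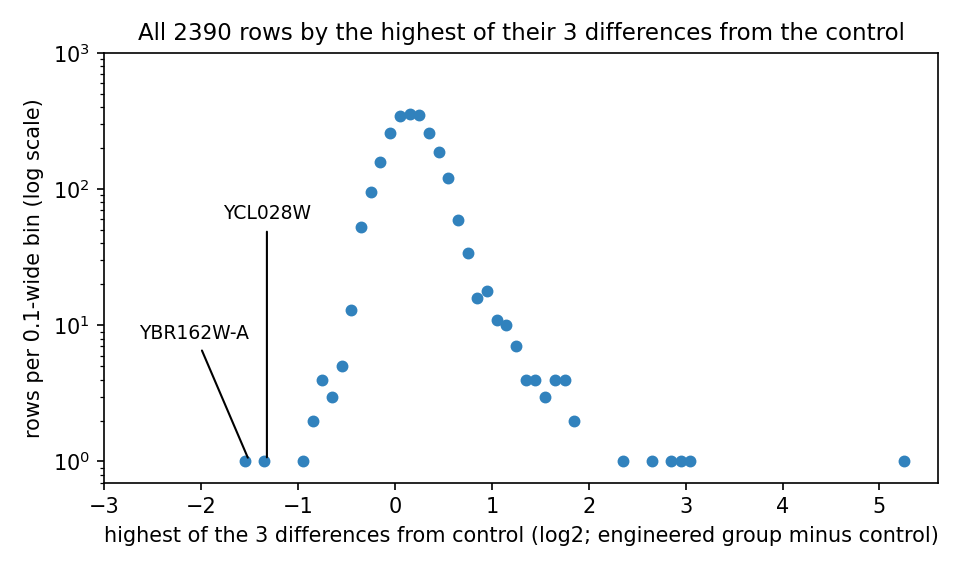
Number of rows, on a log axis, by the highest of a row's 3 log2 differences from the control, in bins of 0.1. YBR162W-A, at -1.50, and YCL028W, at -1.32, lie apart at the left end.

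Differences among the 3 engineered groups were not used to choose the row and were tested. DS56 had the highest mean of the 3, followed by G12-CBS at 24 h and G12-CBS at 72 h. None of the 3 differences passed the test across all rows, and all 3 were small beside the distance to the control.

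G12-CBS and DS56 at 72 h, which differ by the CYS4 promoter, were compared first. YBR162W-A was at 8.09 ± 0.16 against 8.44 ± 0.20 (SD, n = 3 each), a log2 difference of -0.35 ± 0.13 (SE). The 95% interval, which is not adjusted for the number of rows, ran from -0.62 to -0.07. With limma the unadjusted p was 0.0163 and the p adjusted over all 2390 rows 0.0651, where 22.4% of all rows passed at 0.05. The highest G12-CBS array, 8.25, lay above the lowest DS56 array, 8.22, so the groups overlapped. Leaving out 1 of 2 arrays moved the difference past the threshold: limma's adjusted p was 0.0340 without DS56 replicate 2, with a difference of -0.46, and 0.0388 without G12-CBS 72 h replicate 3, with a difference of -0.43. Leaving out any other array of these 2 groups raised the adjusted p. It was 0.173 without DS56 replicate 1 and 0.231 without DS56 replicate 3. Without G12-CBS 72 h replicates 1 or 2 it was 0.106 and 0.193.

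Within the G12-CBS strain, the 72 h cultures, which had been fed, were compared with the unfed 24 h cultures. Time and feeding differ together and cannot be told apart. YBR162W-A was at 8.09 ± 0.16 at 72 h and 8.14 ± 0.06 at 24 h (SD, n = 3 each). The log2 difference was -0.04 ± 0.13 (SE), with a 95% interval from -0.32 to 0.23 and limma's adjusted p = 0.837. Changes beyond 1.25-fold in either direction lie outside this interval. The groups overlapped, and 10.9% of all rows had a smaller difference. In the same comparison 22.8% of rows passed the test. The sign was not settled: the difference was 0.04 without G12-CBS 72 h replicate 2.

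Unfed G12-CBS at 24 h and fed DS56 at 72 h differ in strain, time and feeding. YBR162W-A was at 8.14 ± 0.06 against 8.44 ± 0.20 (SD, n = 3 each), a log2 difference of -0.30 ± 0.13 (SE). Its 95% interval ran from -0.58 to -0.03. The unadjusted p of limma was 0.0331 and the adjusted p 0.739, in a comparison where 0.962% of rows passed. With the spread taken from the 6 arrays alone limma's adjusted p was 0.141, where 66 of all rows passed. The 2 groups were separate, as in 20.3% of all rows, but the gap was 0.0082. That is 1 step of the table at this height: 8.21 and 8.22, the values on either side, are neighbouring levels with none between them. Equal values on G12-CBS 72 h replicate 1 and on G12-CBS 24 h replicates 2 and 3, all 8.10, are likewise 1 shared level, which occurs on all 12 arrays.

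**Figure D3:**
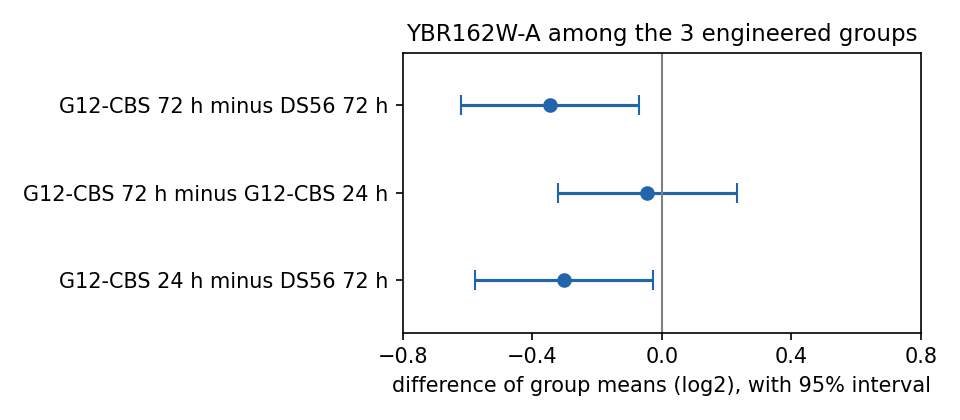
Differences of YBR162W-A between the engineered groups on the log2 scale, first group minus second, with 95% intervals from limma over 12 arrays. The points lie at -0.35, -0.04 and -0.30, and the interval of the 72 h against 24 h comparison includes 0.

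In the order of the means, the 2 G12-CBS groups lay closer together (-0.04) than either of their SDs. The step from DS56 to G12-CBS at 24 h (-0.30) was larger than either SD but did not pass the test, and the step from the control to DS56 was -1.50. The SD of 0.20 in DS56 was large for that group, where the median row had 0.11 and 87.4% of rows had a smaller SD. In the control the SD of 0.13 was below the median of 0.19. For G12-CBS the SDs of 0.06 at 24 h and 0.16 at 72 h were also below the medians of 0.09 and 0.18.

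Likeness of other rows to YBR162W-A was measured by Pearson correlation over the 12 arrays. The arrays fall into 3 control arrays and 9 others, and all rows share the same arrays, so a high correlation mostly records the step between these 2 sets. Among 2389 rows the median was -0.08, and 4 rows reached 0.9. The highest was YKR090W (PXL1 in S. cerevisiae, a cytoskeleton-associated protein of cell polarity), at 0.96. YPL135W (ISU1, the scaffold for iron-sulphur cluster assembly) was at 0.94, YCL028W (RNQ1, a prion-forming protein) at 0.90, YHR012W (VPS29, a retromer subunit) at 0.90 and YLR075W (RPL10, a large ribosomal subunit protein) at 0.90. All 5 had every engineered array below every control array. Over the 9 engineered arrays alone their correlations ran from 0.01 in YLR075W to 0.82 in YCL028W.

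These rows moved with YBR162W-A in shape but mostly not in size. YKR090W differed from the control by -0.35 in DS56, -0.37 in G12-CBS at 24 h and -0.34 in G12-CBS at 72 h. YPL135W differed by -0.59, -0.65 and -0.75 in the same order. YLR075W lay near the top of the scale, with 15.58 on all 3 control arrays and 15.27 on all 6 G12-CBS arrays, where neighbouring levels are far apart.

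The lowest correlation of any row, -0.97, was that of YDR502C, the row that rose from 10.47 ± 0.29 to the top of the scale where the recombinant gene was present. Over the 9 engineered arrays, where YDR502C hardly varied, the correlation was 0.22. YOR373W (NUD1, a spindle pole body protein) followed with -0.92 and YJL019W (MPS3, a nuclear envelope protein) with -0.92. YOR373W was higher than the control by 0.45 in DS56, 0.70 in G12-CBS at 24 h and 0.60 in G12-CBS at 72 h.

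A second measure asked for rows close in size as well: the largest gap from YBR162W-A over the group means, each row centred on its control mean. The median row had a gap of 1.97, and 2 rows had a gap under 1. YCL028W was nearest, with a gap of 0.27 and differences from the control of -1.32, -1.53 and -1.63 in DS56 and in G12-CBS at 24 h and 72 h. Its control arrays were spread widely, at 8.83, 8.49 and 7.49, although each lay above the 9 engineered arrays, of which the highest was 7.16. The order of its group means was the same as in YBR162W-A.

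YDR115W came next, with a gap of 0.91 and control arrays at 7.18, 7.36 and 8.70, followed by YOL080C at 1.06, YBR171W at 1.06 and YDR311W at 1.14. In S. cerevisiae YDR115W is a mitochondrial ribosomal protein gene, YOL080C is REX4, a putative RNA exonuclease, and YDR311W is TFB1, a subunit of the transcription factor TFIIH. In YOL080C the step was uneven, with -1.53 in DS56, -1.51 in G12-CBS at 24 h and -0.79 in G12-CBS at 72 h. YBR171W, the S. cerevisiae gene SEC66, belongs to the ER translocation genes described next.

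**Figure D4:**
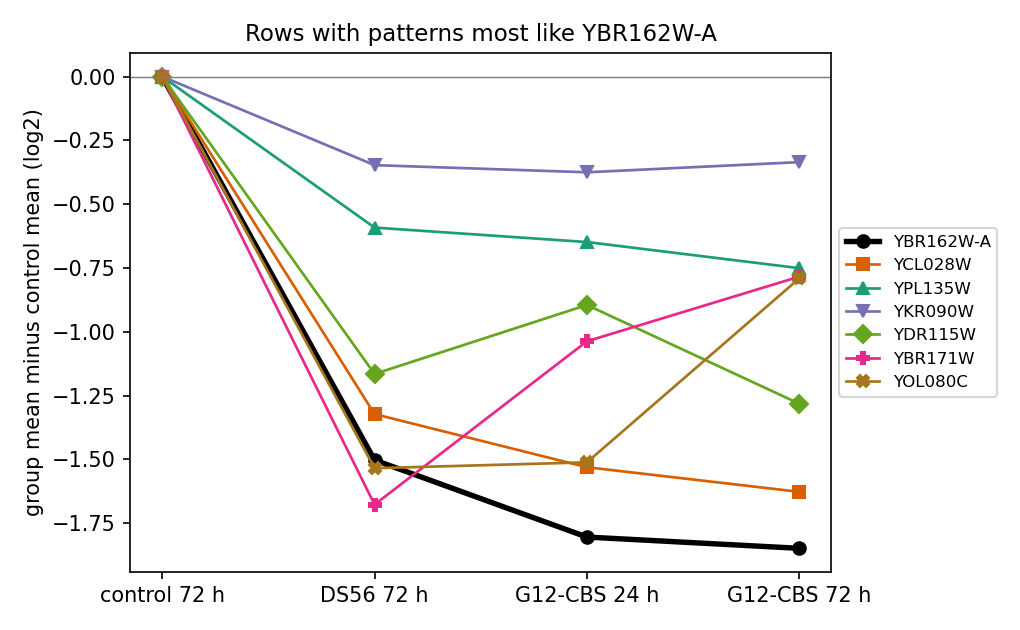
Group means minus the control mean on the log2 scale (n = 3 arrays a mean) for YBR162W-A and 6 rows with a high correlation or a small gap; lines join the means of a row. YCL028W runs closest to YBR162W-A, and YBR171W rises from DS56 to G12-CBS at 72 h where YBR162W-A does not.

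For the pathway around YSY6, 58 S. cerevisiae names in 8 lists were looked up, of which 26 were rows of the table. Against the control, 3 of 26 rows passed limma's test in DS56 (1 higher, 2 lower), where 18.1% of all rows passed. In G12-CBS at 72 h 3 of 26 passed (1 higher, 2 lower; all rows 9.21%), and at 24 h 4 of 26 (2 higher, 2 lower; all rows 19.7%). The median difference of the 26 rows was 0.02, 0.05 and 0.05 in DS56, G12-CBS at 72 h and G12-CBS at 24 h, beside 0.04, -0.02 and 0.04 for all rows. The 3 calls of DS56 became 1 without control replicate 3, without DS56 replicates 1 or 2, or without any 1 of the G12-CBS 24 h arrays. Over all rows the 433 calls of DS56 became 239 to 368 in these runs. The 4 list calls of G12-CBS at 24 h became 1 without its replicate 1 or 2 and 2 without its replicate 3. Over all rows its 472 calls became 270 to 275 there.

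Between the engineered groups, 5 of 26 rows passed for G12-CBS against DS56 at 72 h (3 higher, 2 lower; all rows 22.4%). For G12-CBS at 72 h against 24 h 3 of 26 passed (1 higher, 2 lower; all rows 22.8%), and 6 did without G12-CBS 72 h replicate 3. For G12-CBS at 24 h against DS56 the 1 row that passed (all rows 0.962%) was YBR171W, and 0 passed without G12-CBS 24 h replicate 3 (limma's adjusted p of YBR171W up to 0.450 over the alternatives). YBR162W-A passed in none of these 3 comparisons.

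The means of 8 of the 26 rows were lower than the control in all 3 engineered groups (24.9% of all rows). YBR171W was the 1 row of the 26 that passed as lower in all 3, and the 1 with all 9 engineered arrays below the control arrays. The latter held in 3.1% of all rows. The share of all rows that passed as lower in all 3 is not given here, so that count has no background beside it. SEC66 is a subunit of the Sec63 complex, which works with the translocon in importing finished proteins. The control arrays were at 9.74, 9.71 and 9.53, and the DS56 arrays at 7.97, 8.07 and 7.91. In G12-CBS the arrays were at 8.87, 8.94 and 8.83 at 72 h and at 8.57, 8.52 and 8.79 at 24 h. All 4 groups were separate from one another, with the control highest, the later G12-CBS group above the earlier one, and DS56 lowest. The step between the G12-CBS groups was 0.25, with a gap of 0.04 between their arrays. It did not pass limma's test (adjusted p = 0.134). G12-CBS at 24 h and DS56 were separate in 20.3% of all rows. For the other pairs of groups that share is not given here.

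Against the control YBR171W fell by 1.68 on the log2 scale in DS56 (SE 0.12, limma's adjusted p = 7.32e-09), a 3.20-fold difference. It fell 1.72-fold in G12-CBS at 72 h (log2 difference -0.78, adjusted p = 0.000192) and 2.05-fold at 24 h (-1.04, adjusted p = 3.96e-06). These 3 calls held in all 20 alternatives of each. Between the strains at 72 h, YBR171W was higher in G12-CBS than in DS56 by 0.89 ± 0.12 (SE, adjusted p = 1.50e-05), where YBR162W-A differed by -0.35 with an interval from -0.62 to -0.07. The difference between these 2 rows was not tested. Over the 9 engineered arrays the 2 rows correlated at -0.83. Among the engineered groups DS56 was the lowest in YBR171W and the highest in YBR162W-A. Deviations from the group means over the 12 arrays correlated at -0.54. Among the other rows named for their correlation or gap, that value ran from -0.64 in YOL080C to 0.65 in YLR075W. YLR292C (SEC72), another subunit of that complex and the other measured translocation row, is named after its values were seen and passed in none of the 6 comparisons. SEC61 itself, the channel subunit, was not among the rows analysed here.

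The other rows of the lists that changed at least 1.5-fold did so in G12-CBS at 72 h. YIR022W (SEC11, the catalytic subunit of signal peptidase) was at 7.26, 7.18 and 7.07 in the control and at 6.57, 6.44 and 6.52 in G12-CBS at 72 h. It fell by 0.66 on the log2 scale (adjusted p = 0.000546), whereas DS56, at 7.05 ± 0.03, did not pass against the control (adjusted p = 0.493). YJL002C (OST1, a subunit of the oligosaccharyltransferase that glycosylates proteins in the ER) rose from 6.08 ± 0.11 to 6.74 ± 0.27, by 0.66 (adjusted p = 0.00716). That call was lost with the spread taken from the 6 arrays alone (adjusted p = 0.109) and in the test against a 1.2-fold change (adjusted p = 0.228). YCL043C (PDI1, protein disulphide isomerase) was at 6.92 ± 0.02 in G12-CBS at 72 h and 6.33 ± 0.19 in DS56, a difference of 0.59 (adjusted p = 0.00293). Against the control, at 6.53 ± 0.19, PDI1 did not pass (adjusted p = 0.0711).

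Among the ER folding rows, YJL034W (KAR2, the ER chaperone BiP), singled out after its values were seen, was at 8.23 ± 0.30 in the control, 8.21 ± 0.10 in DS56, 8.23 ± 0.15 in G12-CBS at 24 h and 8.10 ± 0.25 at 72 h, and passed in no comparison (adjusted p from 0.578 to 0.999). The 95% interval of its difference between DS56 and the control reached 1.27-fold lower and 1.23-fold higher. The 3 measured rows for the unfolded protein response and ER-associated degradation and the 3 for insertion of tail-anchored proteins also passed in no comparison. Lists of 3 rows are too short to set a count of 0 against the shares of all rows given above.

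Of 6 rows for the signal recognition particle and its receptor, 1 passed in DS56 and 1 in G12-CBS at 24 h (16.7% each, beside 18.1% and 19.7% of all rows). Both calls were of YPL243W (SRP68), named here after its values were seen, whose difference from the control was -0.42 in DS56 (limma's adjusted p = 0.0469) and -0.43 in G12-CBS at 24 h (adjusted p = 0.0423). The DS56 and control arrays overlapped. The call in DS56 was lost in 10 of 20 alternatives, among them leaving out control replicate 1 (adjusted p = 0.143) or 3 (0.143), DS56 replicate 1 (0.180) or 2 (0.154), or any 1 of the G12-CBS 24 h arrays (0.0654 to 0.0721). That in G12-CBS at 24 h was lost in 9 of 20, among them leaving out control replicate 1 (adjusted p = 0.131) or 3 (0.132), DS56 replicate 1 (0.0519) or 2 (0.0623), or any 1 of its own arrays (0.104 to 0.124).

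**Figure D5:**
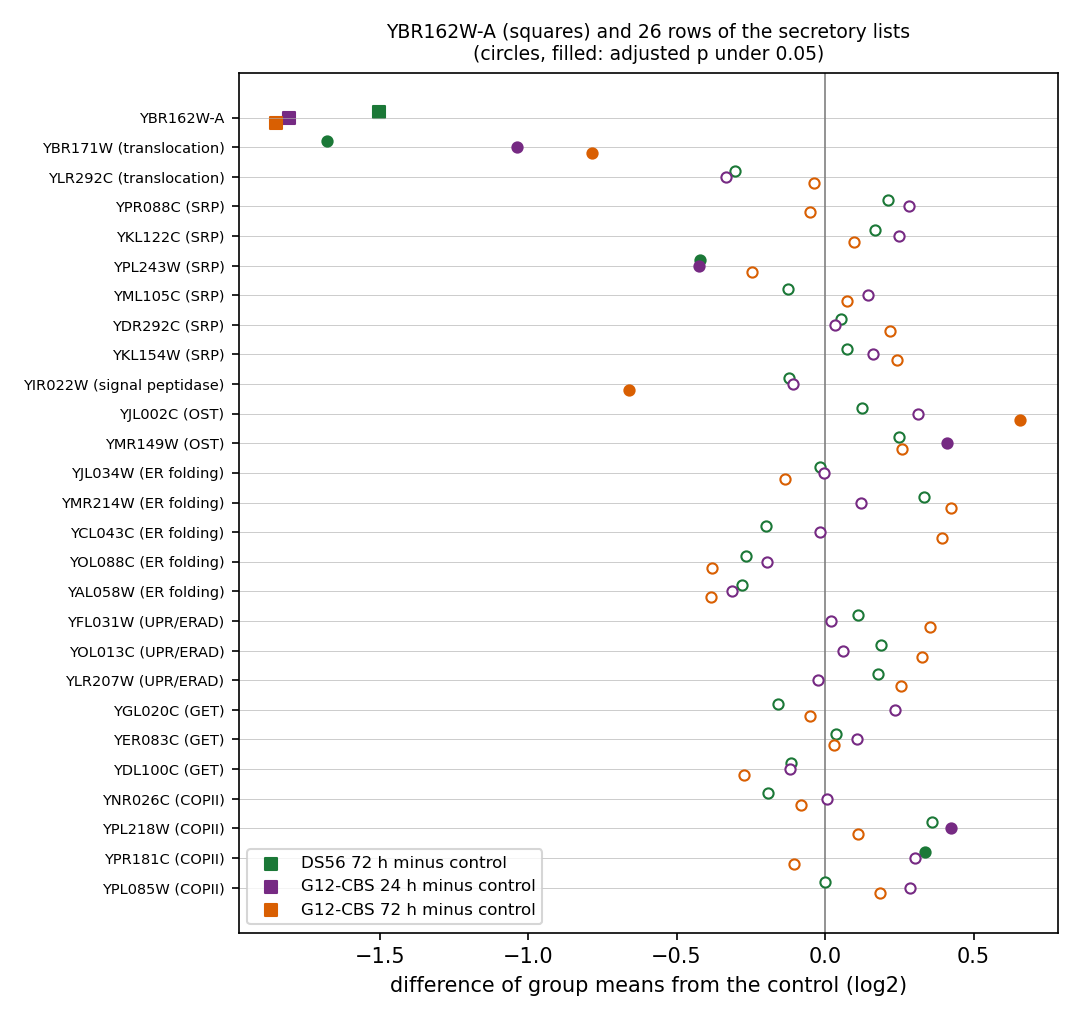
Differences of group means from the control on the log2 scale for YBR162W-A (squares, not tested) and the 26 rows of the secretory lists (circles, filled where limma's adjusted p is under 0.05), in 3 engineered groups. YBR171W is the row of the lists that lies at or below -0.78 in all 3 groups.

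YBR162C (TOS1, a cell wall protein) is a neighbour on the S. cerevisiae map. Whether the genes lie side by side in K. phaffii is not known here. YBR162C was at 6.18 ± 0.06 in the control, 6.51 ± 0.12 in DS56, 6.51 ± 0.12 in G12-CBS at 24 h and 6.41 ± 0.18 at 72 h. Its control mean was the lowest of the 4. All 9 engineered arrays, the lowest at 6.28, lay above the control arrays, the highest at 6.25, as in 1.97% of all rows. It passed limma's test in no comparison (adjusted p from 0.0684 to 0.999).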

How the data were processed

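The authors' deposited table holds log2 values, 1 per row and array, for 12 Cy3 NimbleGen arrays. Per the submitters' processing notes, RMA was used. Each array measured 5777 genes with 8 probes a gene, per the labels' design text; rows beyond the 2390 were not analysed here. Neither the software version nor how background was corrected is given in the sources used here. All 2390 rows and 12 columns entered the analysis unchanged. The number of arrays limits the precision. Equal values on several arrays arise because the arrays share levels.

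One limma 3.58.1 model (R 4.3.3, lmFit and eBayes) of the 4 groups was fitted to all rows and 12 arrays, with Benjamini-Hochberg adjustment over the 2390 rows of a comparison and a two-sided threshold of 0.05. The model was tested on simulated data in which each group kept its own spread. Large changes were recovered, but in most comparisons the share of false calls was above the nominal one. The simulated spread was each row's SD over the 3 arrays of a group, itself imprecise. How far the excess holds for the deposited values is therefore not known. Calls near the threshold may be less sure than their adjusted p states. SE and 95% intervals are limma's. Positions come from the sacCer2 gene table of GenomicFeatures 1.54.1. Figures were drawn with matplotlib 3.10.9. Named rows are YBR162W-A, its 5 highest and 3 lowest correlations, its 5 smallest gaps, list rows that passed with at least a 1.5-fold change, and rows for the engineered genes and neighbours. Others are said to be chosen after their values were seen. The row, the lists, the tests and these rules were chosen with earlier results of these data known. Sequences are not printed.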

Additional observations from a re-analysis of the deposited data

Results flagged for a closer look

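In 4 rows of the secretory lists, DS56 and G12-CBS at 72 h stood at different distances from their shared control, by the direct test of G12-CBS minus DS56. The difference was 0.89 on the log2 scale in YBR171W (limma's adjusted p = 1.50e-05), -0.54 in YIR022W (adjusted p = 0.00167), 0.53 in YJL002C (adjusted p = 0.0131) and 0.59 in YCL043C (adjusted p = 0.00293). Each was lost in the test against a 1.2-fold change except that of YBR171W. YJL002C also lost it without DS56 replicate 3 and without G12-CBS 72 h replicate 1. In YBR162W-A the same difference was -0.35 (adjusted p = 0.0651).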

How the results depend on the processing

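The 3 differences of YBR162W-A from the control kept their sign in all 16 alternatives of each and moved by at most 0.110 in DS56, 0.0833 in G12-CBS at 72 h and 0.0719 at 24 h, less than the pooled SDs of the 2 groups compared, 0.166, 0.145 and 0.0993. When 1 array was left out they ran from -1.58 to -1.39 in DS56, -1.93 to -1.77 in G12-CBS at 72 h and -1.88 to -1.76 at 24 h. The replicate block, quantile normalization and leaving out an array of a group not compared left these differences unchanged. Those alternatives are thus no check on them. The row was chosen by these differences, so this is description only. Its control arrays lay at least 1.197 above every engineered array, so leaving out 1 array could not turn a sign. G12-CBS minus DS56 at 72 h stayed negative, with -0.46 to -0.26 on leaving out 1 array, and passed with the replicate block (-0.35, limma's adjusted p = 0.0477); over the 20 alternatives the adjusted p ran from 0.0340 to 0.997. G12-CBS at 72 h minus 24 h ran from -0.12 to 0.039 on leaving out 1 array and was 0.0028 after centring on array medians, without passing in any alternative. G12-CBS at 24 h minus DS56 ran from -0.41 to -0.22 and did not pass in any. Its adjusted p in limma was lowest with array weights, at 0.0920, and was 0.141 with the 6 arrays alone. Replicate numbers were treated as names and not as pairs, since deviations of the 18 same-numbered pairs of arrays correlated at -0.12 to 0.18, with 2 above 0.1. The block moved the count of rows called from 433 to 395 for DS56 against control and from 535 to 534 for G12-CBS against DS56. Counts of secretory list rows moved most against a 1.2-fold change: to 1 (from 3) for DS56 against control, 1 (from 4) for G12-CBS at 24 h against control, 1 (from 5) for G12-CBS against DS56, and 0 for the other comparisons of the engineered groups. DS56 against control gave 1 with the replicate block (all rows 395) and with the 6 arrays alone (all rows 301). Without 1 array it gave 1 to 4 (all rows 239 to 480). G12-CBS at 24 h against DS56 gave 2 with array weights (all rows 76) and with the 6 arrays alone (all rows 66). Without 1 array it gave 0 to 1 (all rows 15 to 29), and against control 1 to 4 (all rows 270 to 518). G12-CBS at 72 h against 24 h gave 5 after quantile normalization (all rows 583) and 2 to 6 without 1 array (all rows 369 to 616). The cause was not tested.

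Over all rows, G12-CBS at 72 h against control gave 220 calls in the model of 12 arrays, 51 with its 6 arrays and 97 with array weights. G12-CBS at 24 h against DS56 gave 23, 66 and 76. Higher rows made up 199 of the 535 calls for G12-CBS against DS56 at 72 h as deposited and 253 of 531 after centring on array medians.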

Other observations

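YBR162W-A is one of 137 rows whose name ends in a hyphen and a letter, the form S. cerevisiae uses for reading frames added to the map later, many of them small. All 9 engineered arrays lay below the 3 control arrays in 15 of the 137 (10.9%, against 3.1% of all rows) and above them in 5 (3.65%, against 1.97%). The 15 include YBR162W-A itself, which was chosen for being lower in the engineered groups. By the least of the 3 falls, YBR162W-A was followed among them by YHR007C-A, with -2.64 in DS56, -1.13 in G12-CBS at 24 h and -0.94 at 72 h, and by YFR012W-A, with -1.32, -1.20 and -0.71. These rows were picked by their values.

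When each array's deviation from its group mean was taken, YBR162W-A correlated over the 12 arrays at 0.19 with YCL028W, at -0.23 with YPL135W, at -0.02 with YDR502C and at -0.54 with YBR171W. These are descriptions over arrays shared by all rows.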
